A study of Mus musculus with 52 samples.

Results

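Cytoplasmic dynein-1 and its activator dynactin were described through 10 genes, taken by symbol from a list, out of 24421 symbols counted. The list holds the heavy chain Dync1h1, the intermediate chains Dync1i1 and Dync1i2, the light intermediate chains Dync1li1 and Dync1li2, the dynactin subunits Dctn1, Dctn2 and Dctn3, and the dynein regulators Pafah1b1 and Ndel1. All 10 symbols were listed for every library, and 9 passed the expression filter. Dync1i1 did not pass.

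The RNA came from Cilia-APEX-IMCD3 cells, an established mouse line derived from the inner medullary collecting duct of the kidney. The cells underwent CRISPR cytosine base editing with BE4-Gam to place human disease missense changes in Wdr34 or Wdr60, the intermediate chains of dynein-2, on both copies. In the ciliated state there were 3 mutant clones, Wdr60, Wdr34 labelled 1 and Wdr34 labelled 3, beside the 4 controls A4, D8, G7 and H12. In the non-ciliated state there were 2 mutant clones, Wdr34 and Wdr60, beside the 4 controls AB, 1, 2 and 3. The Wdr60 change of the study is p.Ala911Val and its Wdr34 changes are p.Arg183Trp and p.Gly394Ser, the latter in a clone that also carries an unintended heterozygous Gly393Asp change. Non-ciliated cells were not sequenced for p.Gly394Ser, and no allele of any clone is stated in the labels. By the study's methods, control cells received the editor and a guide vector without a target, and clones grew from single sorted cells. The titles of non-ciliated controls 1, 2 and 3 begin with BE and that of AB does not. The titles do not say how AB was made. Each edited line of a state is therefore 1 clone, so an edit and other properties of its clone cannot be told apart. The labels give the same serum for all libraries, whereas the study's methods starve the ciliated cells. Ciliated state and serum therefore cannot be told apart. The study obtained p.Gly394Ser only once sequencing of the non-ciliated cells was over, so sequencing time also differed between states, at least for that clone. State and time of sequencing cannot be told apart either. The labels do not say whether a control clone of one state has a counterpart in the other.

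Dynein-1 is the motor that moves vesicles, organelles and mRNA toward the minus ends of microtubules in the cytoplasm, and it positions nuclei, the Golgi apparatus and the mitotic spindle. Its heavy chains hydrolyse ATP and walk, the intermediate and light intermediate chains bind dynactin, adaptors and cargo, and dynactin together with an adaptor makes the motor processive. Dynein-2 is a related motor with its own heavy, intermediate and light intermediate chains that returns cargo from the tip of the cilium, so dynein-1 is its counterpart outside the cilium.

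Each of the 13 clones had 4 technical replicate libraries, which were summed, so that the clone was the sample of each test. Library totals ranged from 14816218 to 28084979 counts, and 1 count-per-million (CPM) stands for 14.8 to 28.1 counts. No pair of libraries of a clone was the same within sampling noise, the lowest chi-square per degree of freedom being 2.02 over 78 pairs. Of 13 markers of collecting duct epithelium, 12 reached 1 CPM in some clone and Aqp2, the water channel of principal cells, did not. Endothelial markers (4 of 4) and 3 of 4 leukocyte markers (Ptprc, Itgam and Cd3e) stayed under 1 CPM in every clone, and the fourth, Cd68, reached at most 4.55 CPM. The summed epithelial list was 1073–4894 CPM in ciliated controls and 924–4251 CPM in non-ciliated controls. The lowest in each were G7 and control 2, in which the epithelial adhesion genes Cdh1 (14.4 and 4.22 CPM) and Epcam (13.5 and 2.86 CPM) and the keratin Krt7 (3.65 and 3.76 CPM) were nearly absent, whereas Cdh1 was at 242–649 CPM and Epcam at 183–837 CPM in the other 11 clones. The mesenchymal list summed to 4.77–149 CPM in ciliated controls and to 54.6–664 CPM in non-ciliated controls, of which Vim made 3.48–149 and 50.1–658 CPM, with the highest values in G7 and control 2. Among ciliated mutants, Wdr34 labelled 3 had an epithelial sum of 1476 CPM (others 3624 and 3769 CPM), with Krt7 at 62.5 CPM and Vim at 197 CPM, the highest of the ciliated clones. In 4 libraries genes with short transcripts stood above genes with long transcripts by more than 0.35 (log2), a limit set on that side only. These were replicate 1 of control AB, replicates 3 and 4 of the ciliated Wdr60 clone and replicate 4 of control G7. The gap, the median of genes with under 2 kb of exons minus that of genes with at least 10 kb, was 0.365 to 1.11 there. It was -0.435 to 0.336 in the other libraries, the lowest of which was replicate 2 of control G7. Short transcripts thus also stood above long ones in kept libraries, such as replicate 3 of non-ciliated Wdr60 at 0.336.

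Of the 2 intermediate chain genes, 1 was in use. Dync1i1, the form enriched in neurons, had a count above 0 in 5 of 52 libraries, with at most 3 counts in a library and 8 counts in all. A floor of 3 counts corresponds to 0.202 CPM in the shallowest library. Dync1i2, the form found in most cells, had 2358 to 6806 counts in a library. Dync1i1 was at or under the floor in all libraries, so no fold change between groups is given for it. Of 5 neuronal markers, Snap25, Syt1 and Rbfox3 were also under 1 CPM in every clone, whereas Tubb3 had 1.45 to 92.0 CPM and Map2 reached 29.5 CPM in ciliated Wdr34 labelled 3. The promoters of this silent and this active intermediate chain gene are shown because no other pair of the list differed in this way. They are RefSeq windows of GRCm38.p6, 250 bases before to 50 bases after an annotated start, 5′ to 3′ on the strand of the gene, with the motif GGGCGG and its reverse complement CCGCCC in capitals. Both genes lie on the + strand, Dync1i1 at chr6:5725389-5725688 and Dync1i2 at chr2:71211696-71211995 for the more downstream of its 2 annotated starts.
Dync1i1: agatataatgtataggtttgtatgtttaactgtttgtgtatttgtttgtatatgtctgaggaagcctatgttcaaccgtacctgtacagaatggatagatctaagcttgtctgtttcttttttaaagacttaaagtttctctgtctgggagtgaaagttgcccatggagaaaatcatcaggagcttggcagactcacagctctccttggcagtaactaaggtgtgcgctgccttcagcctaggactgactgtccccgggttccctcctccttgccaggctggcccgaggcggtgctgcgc
Dync1i2: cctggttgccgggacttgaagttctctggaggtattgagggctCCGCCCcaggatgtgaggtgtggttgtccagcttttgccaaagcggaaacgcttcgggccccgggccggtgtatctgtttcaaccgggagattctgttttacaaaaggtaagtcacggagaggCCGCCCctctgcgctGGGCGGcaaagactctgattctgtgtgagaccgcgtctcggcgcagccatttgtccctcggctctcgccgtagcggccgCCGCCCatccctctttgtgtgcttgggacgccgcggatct
The Dync1i1 window held 6 CG pairs and no GGGCGG on either strand. The Dync1i2 window held 25 CG pairs, 1 GGGCGG and 3 CCGCCC. Over 32851 windows of the same length, the median was 7 CG pairs, 43.6% had fewer CG pairs than the Dync1i1 window and 81.6% had fewer than this Dync1i2 window. GGGCGG on either strand was in 35.7% of all windows, CCAAT on either strand in 37.4% and TATAAA on either strand in 13.6%, and neither of the latter was in these 2 windows. The other annotated start of Dync1i2 had 6 CG pairs, as many as Dync1i1. Windows were matched for 9 of the 10 genes. Those of the other matched genes, all of which passed the expression filter, held 3 to 31 CG pairs, so few CG pairs were not particular to Dync1i1. The windows of Dctn1, Dctn2, Dctn3 and Pafah1b1 also held no GGGCGG on either strand, so its absence was not particular to Dync1i1 either.

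Levels of different genes were compared as CPM per kb of merged exons. In ciliated controls the order from the highest was Dctn2 (46.0 ± 5.2, SD, n = 4 clones), Dctn3 (45.6 ± 6.8), Pafah1b1 (41.5 ± 4.9), Dctn1 (35.8 ± 5.7), Dync1li2 (35.0 ± 3.8), Dync1h1 (27.5 ± 6.1), Dync1i2 (26.3 ± 3.4), Ndel1 (22.2 ± 3.9) and Dync1li1 (18.1 ± 1.9). Each gene of this order overlapped its next neighbour in clone values, so neighbours did not separate, except that Dync1i1 came last with 0.0011 and no overlap. In non-ciliated controls Dctn2 was again the highest (41.9 ± 4.2), but Dync1h1 (38.4 ± 3.9) and Dync1i2 (38.0 ± 1.7) came next in place of Dctn3 and Pafah1b1. Ndel1 was the lowest expressed gene there (15.5 ± 1.6), without overlap with Dync1li1 (23.7 ± 2.9). With the longest transcript as the length, Dctn2 remained the highest in all 4 groups of clones, and ranks below it changed. Dync1h1 then came at rank 5 in non-ciliated controls and at rank 9 in ciliated mutants, below Dync1li1.

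The dynein-2 genes were compared with their counterparts on the same scale. Dync2h1, the dynein-2 heavy chain, stood at 1.61 ± 0.15 CPM per kb in ciliated controls and 1.43 ± 0.08 in non-ciliated controls (SD, n = 4). Dync1h1 exceeded it 17.2 ± 4.3 times in ciliated controls and 27.0 ± 3.7 times in non-ciliated controls. The clone values of this ratio overlapped, from 13.9 to 23.1 and from 22.0 to 31.0 (exact 2-sided permutation test of 4 against 4 clones, p = 0.0571, BH-adjusted over 2 ratios 0.0571). Other pairs were closer. Dync1li2 was at 1.95 ± 0.46 and 2.12 ± 0.11 times the level of Dync2li1 in ciliated and non-ciliated controls, and Dync1li1 at 1.01 ± 0.25 and 1.52 ± 0.21 times, so that Dync2li1 was level with Dync1li1 in ciliated controls. Dync1i2 was at 1.55 ± 0.10 times the level of Wdr34 in ciliated controls (clones 1.44–1.65) and at 3.45 ± 0.63 times in non-ciliated controls (2.73–4.27), without overlap, and at 8.87 ± 0.70 and 12.9 ± 2.1 times the level of Wdr60. Per kb of the longest transcript, Dync1i2 stood at 48.2 and Wdr34 at 22.1 in ciliated controls. In non-ciliated controls they stood at 69.6 and 14.6, so the multiples depend on the length used. Between the paralogs, Dync1li1 made up 34.1 ± 3.1% of the light intermediate chain level in ciliated controls and 41.7 ± 4.2% in non-ciliated controls, with clone values of 30.3–37.7% and 35.8–45.3% (exact permutation p = 0.0571, adjusted 0.0571).

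**Figure D1:**
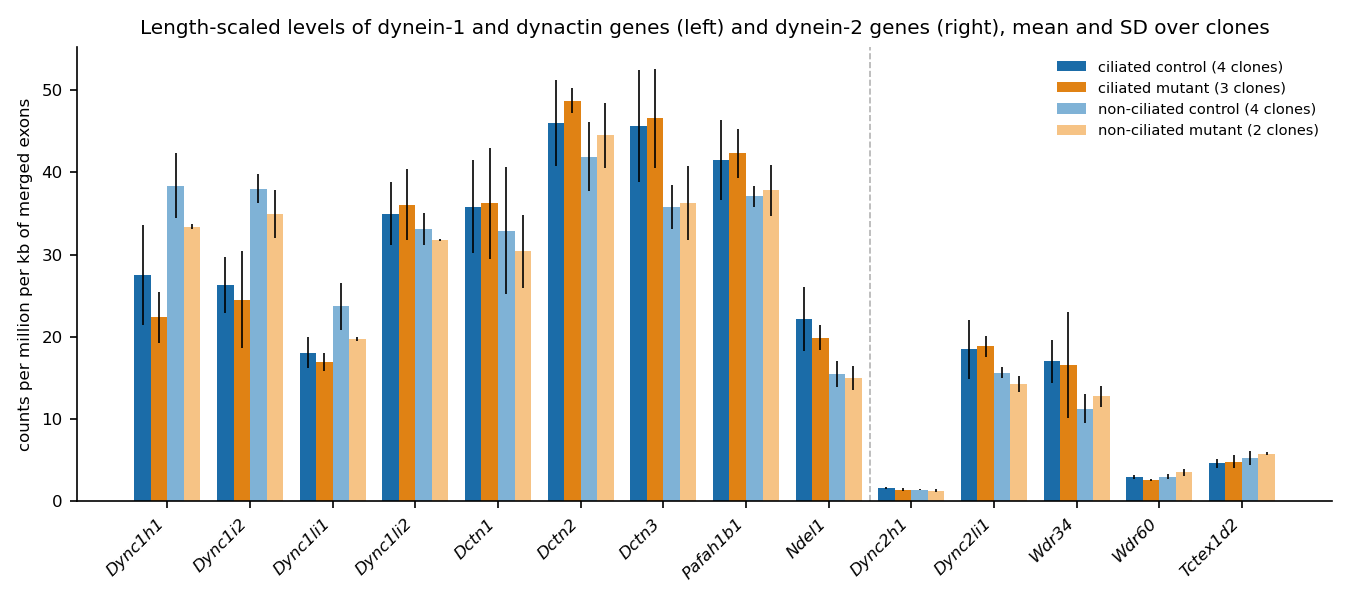
CPM per kb of merged exons (vertical axis) of 9 dynein-1 and dynactin genes and 5 dynein-2 genes, as bars for the mean over clones of each group with lines for the SD. Dctn2 stands highest at 46.0 in ciliated controls and Dync2h1 lowest at 1.61, and Dync1h1, Dync1i2 and Dync1li1 have lower means in ciliated than in non-ciliated controls while Ndel1 has a higher mean, of which the difference of Dync1i2 passed the adjusted test.

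Ciliated and non-ciliated controls were compared to see how the motor differs between the states in unedited cells (13119 genes tested by edgeR quasi-likelihood). Of 9 tested genes of the list, Dync1i2 passed an adjusted p of 0.05, lower in ciliated cells, and 0 passed higher. Among all genes 7.33% passed lower and 6.11% higher. At an unadjusted p under 0.05 there were 5 genes of the list, where 32.1% of all genes lay. The median size of the log2 difference was 0.36 over the 9 genes and 0.39 over all genes tested, so the list moved about as far between states as genes in general.

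The chains of the motor itself came first. Dync1i2 was at 231, 217, 244 and 179 CPM in the ciliated control clones D8, H12, A4 and G7, and at 305, 333, 301 and 320 CPM in the non-ciliated control clones AB, 1, 2 and 3. All ciliated clones lay below all non-ciliated clones. The mean fell from 315 ± 14 to 218 ± 28 CPM (SD, n = 4 each), a log2 fold change of -0.55 (SE 0.13, 95% interval -0.84 to -0.26, edgeR adjusted p = 0.0283, exact permutation p = 0.0286, the smallest that 4 against 4 clones allow). Without one clone at a time the change was -0.61 to -0.46 and the adjusted p rose to 0.0514 to 0.0999 without AB, 1, 3, D8, H12 or A4. G7 had the lowest level of the ciliated controls and control 2 the lowest of the non-ciliated controls. Without these 2 clones, low in Cdh1 and Epcam, the change was -0.48 (edgeR adjusted p = 0.0336) and that of Dync1li1 was -0.46 (adjusted p = 0.0477).

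Dync1li1 showed the same separation without passing the adjusted test. It was at 75.1, 61.2, 76.5 and 66.6 CPM in ciliated controls D8, H12, A4 and G7 and at 88.1, 102, 77.7 and 98.6 CPM in non-ciliated controls AB, 1, 2 and 3. Its log2 fold change was -0.42 (SE 0.13, 95% interval -0.72 to -0.12, edgeR adjusted p = 0.0666, exact permutation p = 0.0286), and without control 2 it was -0.49 with an edgeR adjusted p of 0.0386. The gap between the highest ciliated clone, A4, and the lowest non-ciliated clone, 2, was about 1 CPM. Clone means of 2 of the 9 genes lay wholly below in ciliated controls, which held for 11.8% of all genes, and 0 wholly above, which held for 10.3%. Its paralog Dync1li2 had 191–239 CPM in ciliated and 193–217 CPM in non-ciliated controls (log2 fold change 0.07, 95% interval -0.19 to 0.33, edgeR adjusted p = 0.726).

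Dync1h1, the heavy chain that carries the motor domain, was at 375, 328, 532 and 488 CPM in ciliated controls D8, H12, A4 and G7 and at 509, 637, 631 and 628 CPM in non-ciliated controls AB, 1, 2 and 3. The groups overlapped through A4, which lay above AB. The log2 fold change was -0.51 (SE 0.17, 95% interval -0.91 to -0.11, edgeR adjusted p = 0.0831, exact permutation p = 0.0571). Without replicate 3 of every clone it was -0.58, with an edgeR adjusted p of 0.0363. Libraries of A4 spread from 372 to 691 CPM and those of G7 from 404 to 581 CPM, a spread that Dync1li2 did not have in A4 (201–233 CPM). Dync1h1 has 15.7 kb of merged exons at chr12:110601452-110666945 on the + strand. Within clones, its libraries followed the median of 1066 genes with at least 10 kb of exons (Pearson r = 0.50 over the deviations of 52 libraries, which share their clone and depth, a description). Between the control groups that median differed by 0.00 on the log2 scale, against -0.51 for Dync1h1. Without the 4 libraries apart in transcript length the difference of Dync1h1 was -0.49 and that of Dync1i2 -0.52 (edgeR adjusted p = 0.107 and 0.0268).

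**Figure D2:**
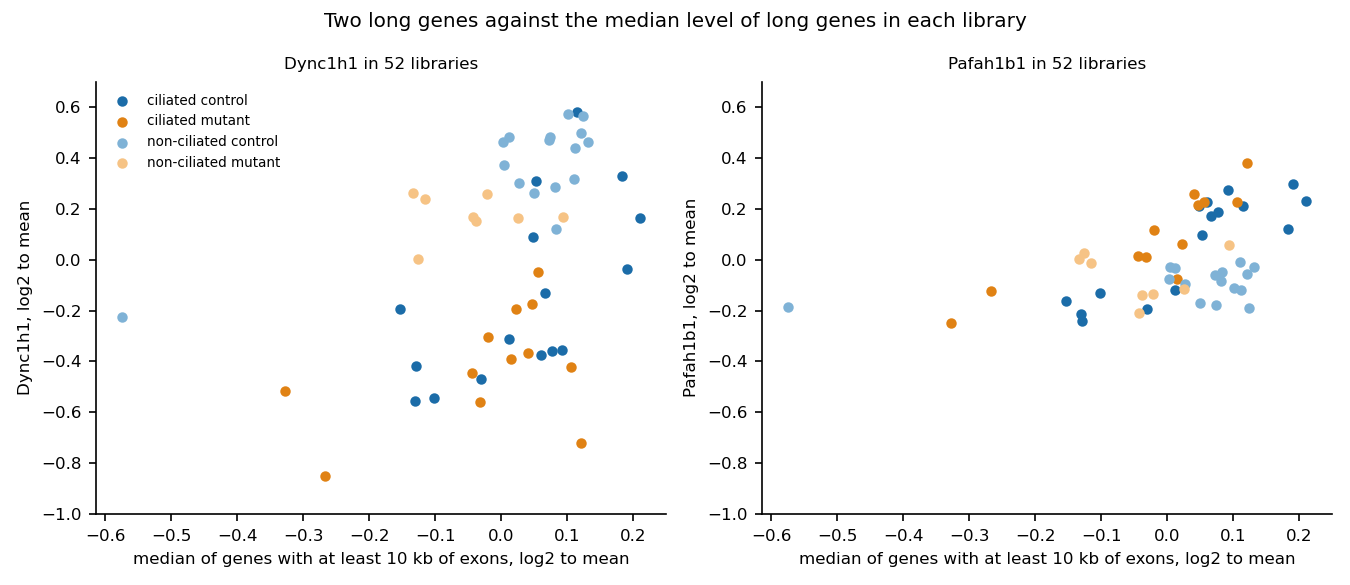
Each point is 1 of 52 libraries, coloured by group, with the median log2 level of genes of at least 10 kb of exons on the horizontal axis and the log2 level of Dync1h1 (left) or Pafah1b1 (right) on the vertical axis, all relative to the mean of 52 libraries. Replicate 1 of control AB stands alone at -0.57 on the horizontal axis, and non-ciliated libraries lie above most ciliated libraries for Dync1h1 at a like value of the long genes.

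For the 3 dynactin subunits and 2 regulators of the list no difference passed the adjusted test. The log2 fold change was positive for 6 of the 9 genes, namely Dync1li2, the 3 dynactin subunits, Pafah1b1 and Ndel1, but without control G7 that of Dctn1 was -0.0021 and that of Dync1li2 -0.0017. Ndel1, which tethers Lis1 to dynein, was at 85.7, 55.2, 75.2 and 73.0 CPM in ciliated controls D8, H12, A4 and G7 and at 44.3, 49.4, 57.0 and 50.8 CPM in non-ciliated controls AB, 1, 2 and 3. H12 lay below control 2 and the other ciliated clones lay above all non-ciliated ones. On the log2 scale Ndel1 differed by 0.51 (SE 0.15, 95% interval 0.16 to 0.85, edgeR adjusted p = 0.0597, exact permutation p = 0.0571). Without H12 it was 0.62, with an adjusted p of 0.0455.

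Dctn3, the small p24 subunit in the shoulder of dynactin, was at 39.5, 56.8, 46.6 and 47.3 CPM in ciliated controls D8, H12, A4 and G7 and at 41.2, 36.7, 36.6 and 34.7 CPM in non-ciliated controls AB, 1, 2 and 3. D8 lay below AB, whose replicate 1 had 56.8 CPM against 35.6–36.2 CPM in its other libraries. The log2 fold change was 0.36 (SE 0.14, 95% interval 0.05 to 0.67, edgeR adjusted p = 0.108). Dctn1, the p150Glued subunit that binds microtubules and the intermediate chain, had 204–287 CPM in ciliated and 163–283 CPM in non-ciliated controls, highest in G7 and control 2 (log2 fold change 0.12, 95% interval -0.32 to 0.56, adjusted p = 0.707). Dctn2, the dynamitin subunit that holds the shoulder together, had 189–241 and 184–227 CPM (0.14, 95% interval -0.15 to 0.43, adjusted p = 0.487). Pafah1b1, which encodes the dynein regulator Lis1, had 332–441 and 339–367 CPM (0.14, 95% interval -0.13 to 0.40, adjusted p = 0.452).

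By DESeq2 on the same clone sums 5 of the 9 genes passed an adjusted p of 0.05, namely Dync1h1 (0.0447), Dync1i2 (0.00115) and Dync1li1 (0.0292), lower in ciliated controls, and Dctn3 (0.0435) and Ndel1 (0.0145), higher. DESeq2 called 24.8% of all genes there. With each library taken as a sample in edgeR, 6 of the 9 genes passed an adjusted p of 0.05 in the same comparison, where 60.9% of all genes did. Dync1h1, Dync1i2 and Dync1li1 were lower and Dctn3, Pafah1b1 and Ndel1 higher in that fit. Libraries of 1 clone are not independent, so these p-values measure the spread between technical replicates as well as between clones.

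Of 18 further dynein-1 and dynactin subunits 16 were tested, of which 3 were lower in ciliated controls and 0 higher, beside 7.33% lower and 6.11% higher of all genes tested. Dynll1, the LC8 light chain that dynein-2 and many other complexes also use, was 2.01-fold lower (log2 -1.01, SE 0.11, edgeR adjusted p = 0.00698). Actr1a, the actin-related protein that forms the dynactin filament, was 1.47-fold lower (adjusted p = 0.0479) and Dctn5, at the pointed end of that filament, 1.41-fold lower (adjusted p = 0.0411). The median log2 difference was -0.21 over this list and 0.01 over all genes tested.

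Among 22 adaptors and regulators, all tested, 1 was higher (6.11% of all genes) and 3 were lower (7.33%) in ciliated controls. Trak1, which links mitochondria to motors, was higher by 0.64 (log2, edgeR adjusted p = 0.0215). Bicd1, an adaptor of Golgi and RNA cargo, fell by 0.67 (adjusted p = 0.0208), Clip1, a plus-end protein that binds dynactin, fell by 0.58 (adjusted p = 0.0285), and Spdl1, which brings dynein to kinetochores, fell by 0.50 (adjusted p = 0.0226). The median of the list was 0.09. Of the 5 dynein-2 genes, Wdr34 was 1.52-fold higher in ciliated controls (adjusted p = 0.0374), at 40.1 ± 6.2 against 26.5 ± 4.1 CPM (SD, n = 4), opposite in sign to Dync1i2, the intermediate chain of dynein-1. Of 12 proliferation genes, Bub1 was 1.93-fold and Plk1 1.59-fold lower and Pcna 1.51-fold higher in ciliated controls (adjusted p = 0.0102, 0.019 and 0.033). The summed proliferation list was 3292–4294 CPM in ciliated and 3718–4468 CPM in non-ciliated controls, with no gene of it under 1 CPM in every clone, and its part in the differences of the dynein genes was not tested.

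The edited clones were compared with controls of the same state to see whether a changed dynein-2 intermediate chain goes with another level of dynein-1. Missense edits need not alter the RNA level, so the levels of Wdr34 and Wdr60 do not check the labels. Wdr34 was at 21.7–49.5 CPM in ciliated mutants and 30.9–44.0 CPM in their controls, lowest in the clone Wdr34 labelled 3. Wdr60 was at 20.4–22.0 CPM in ciliated mutants against 21.8–25.7 CPM in controls.

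In ciliated cells 0 of 9 genes passed an adjusted p of 0.05 by edgeR, as did 0 of 13243 genes in all (0.0%). Of the list 0 genes had an unadjusted p under 0.05, where 1.12% of all genes did, and 0 had clone means that did not overlap, where 2.01% did. DESeq2 on the same clone sums and edgeR on libraries also gave 0 genes of the list, where they called 0.0227% and 3.17% of all genes. The median size of the log2 difference was 0.07 over the 9 genes and 0.14 over all genes tested.

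Dync1h1 had the largest difference of the list in ciliated cells. It was at 352, 397 and 301 CPM in the mutants Wdr34 labelled 1, Wdr34 labelled 3 and Wdr60, against 328–532 CPM in controls. The Wdr60 clone lay below all controls and both Wdr34 clones lay among them. The log2 fold change was -0.30 (SE 0.20, 95% interval -0.77 to 0.18, edgeR adjusted p = 1.0, exact permutation p = 0.257). The median of genes with at least 10 kb of exons differed by -0.06 in the same comparison and that of genes under 2 kb by 0.02. The libraries of the Wdr60 clone with the lowest value, replicate 4 at 256 CPM, and with 323 CPM, replicate 3, were among the 4 libraries apart in transcript length, and its other libraries had 345 and 280 CPM.

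For the remaining genes the differences were small and of both signs. Ndel1 gave -0.17 (95% interval -0.55 to 0.22), Dync1i2 -0.10 (-0.56 to 0.36), Dync1li1 -0.09 (-0.40 to 0.21), Dctn2 0.07 (-0.25 to 0.38), Dync1li2 0.03 (-0.30 to 0.37), Pafah1b1 0.03 (-0.29 to 0.35), Dctn3 0.01 (-0.39 to 0.40) and Dctn1 0.01 (-0.44 to 0.45) on the log2 scale. The intervals allow changes of this size or larger in either direction. A p above the threshold here does not show that the levels are the same. Dync1i2 was at 209, 152 and 249 CPM in Wdr34 labelled 1, Wdr34 labelled 3 and Wdr60, with 1 clone below and 1 above all 4 controls, and without Wdr34 labelled 3, the ciliated mutant with the lowest epithelial sum, its difference turned to 0.07.

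In non-ciliated cells 0 of 9 genes passed (edgeR), as did 0 of 13406 genes in all (0.0%), and 0 of 9 had an unadjusted p under 0.05, where 4.34% of all genes did. Dync1li1 had the largest difference, with 77.1 and 75.9 CPM in the Wdr34 and Wdr60 clones against 88.1, 102, 77.7 and 98.6 CPM in controls AB, 1, 2 and 3. Both mutant clones lay below all controls, with control 2 within 1 CPM of the Wdr34 clone. The log2 fold change was -0.26 (SE 0.14, 95% interval -0.60 to 0.07, edgeR adjusted p = 0.976, exact permutation p = 0.133, where 2 against 4 clones can reach 0.0667 at best). Dync1li2 was also lower in both clones, 191 and 192 CPM against 193–217 CPM, a log2 fold change of -0.05 (95% interval -0.33 to 0.23). These 2 of 9 genes did not overlap between groups, which held for 13.1% of all genes. With libraries as samples, Dync1li1 passed by edgeR (adjusted p = 0.0162), where 15.0% of all genes did.

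Dync1h1 gave -0.20 in non-ciliated cells (95% interval -0.54 to 0.15), with 526 and 520 CPM in the Wdr34 and Wdr60 clones between control AB at 509 and the other controls at 628–637 CPM. Genes with at least 10 kb of exons had a median of -0.08 there and genes under 2 kb one of 0.14. Dync1i2 gave -0.12 (-0.40 to 0.15), Dctn1 -0.11 (-0.68 to 0.47), Ndel1 -0.04 (-0.41 to 0.32), Pafah1b1 0.03 (-0.25 to 0.31), Dctn3 0.04 (-0.30 to 0.37) and Dctn2 0.10 (-0.24 to 0.44). The median size over the 9 genes was 0.10, against 0.18 over all genes tested.

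The mutant effect was then compared between the states in one fit of all 13 clones. The difference of effects (ciliated minus non-ciliated) was called for 0 of 9 genes by edgeR and for 0 of 13994 genes in all (0.0%), and 0 of 9 had an unadjusted p under 0.05, where 0.972% of all genes did. It ran from -0.12 for Ndel1 (95% interval -0.62 to 0.37) to 0.18 for Dync1li1 (-0.24 to 0.60). In both mutant comparisons 0 genes of the further subunits, the adaptors and regulators and the dynein-2 list passed the adjusted test. The largest differences there, none of them called, were 0.77 for Ccdc64, a BICD-related adaptor, among the adaptors of ciliated cells (adjusted p = 1.0) and 0.55 for the same gene in non-ciliated cells (adjusted p = 0.976). Dynll1 at 0.21 and Capza1, a subunit of the capping protein of dynactin, at 0.36 were the largest among the further subunits of ciliated and non-ciliated cells. Dync2h1 at -0.22 and Wdr60 at 0.24 were the largest among the dynein-2 genes. Pcna at -0.37 and Mki67 at -0.27 were the largest of the proliferation genes. In the difference between states the largest were Hook3, a dynein adaptor (0.38), Dynlt1b (-0.21), Wdr60 (-0.44) and Pcna (-0.43), with an adjusted p of 1.0 each. Dynlt1b has near-identical copies whose reads the counting could split, so its value is uncertain.

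**Figure D3:**
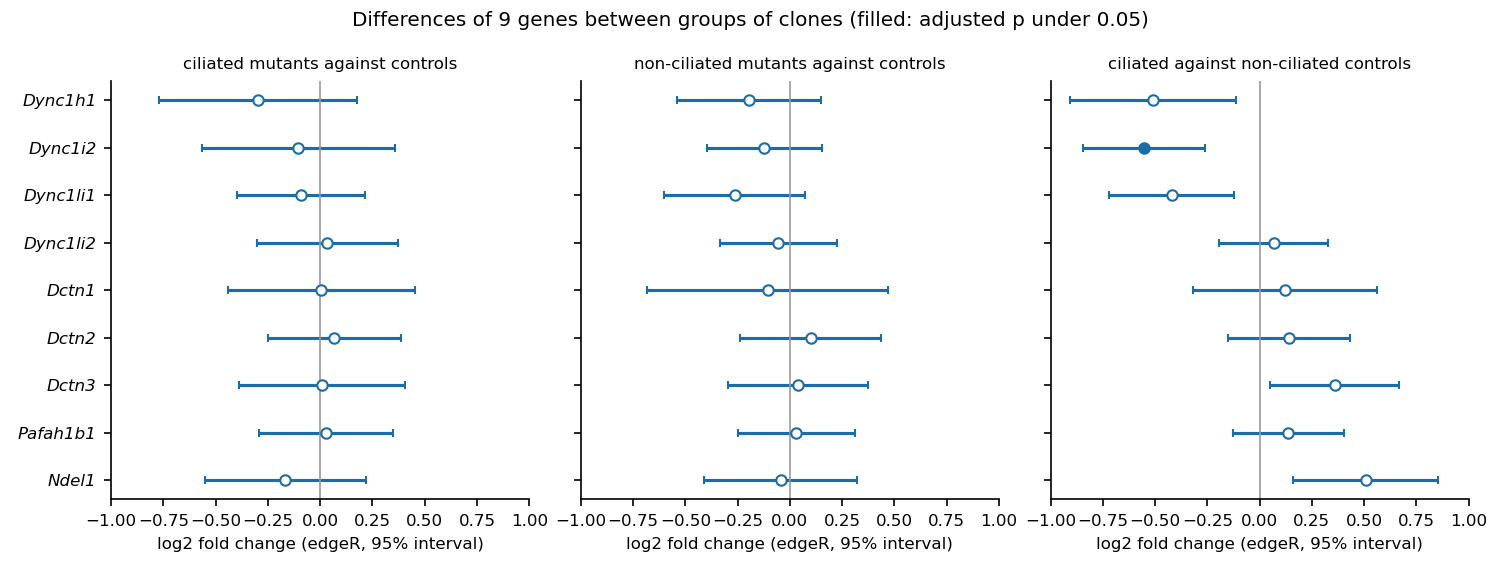
Log2 fold changes (horizontal axis) of the 9 tested genes in 3 comparisons of clone sums by edgeR, points with lines for the 95% interval, filled where the adjusted p was under 0.05. Dync1i2 at -0.55 in ciliated against non-ciliated controls is the filled point, and every interval of both mutant comparisons crosses 0.

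The SD of log2 levels between control clones was above that between the libraries within the same clones for 9 of 9 genes in ciliated cells and for 8 of 9 in non-ciliated cells. There Dctn3 had 0.10 between and 0.19 within clones, and Dync1h1 (0.16 and 0.15), Dync1i2 (0.07 and 0.06) and Pafah1b1 (0.05 and 0.05) had nearly the same in both. Across the 13 clones Dync1i2 had the widest range of the 9 genes, 2.20-fold from 152 CPM in ciliated Wdr34 labelled 3 to 333 CPM in non-ciliated control 1. Dync1h1 spanned 2.12-fold, Ndel1 1.93-fold, Dctn1 1.76-fold, Dync1li1 1.67-fold, Dctn3 1.64-fold, Pafah1b1 1.33-fold, Dctn2 1.31-fold and Dync1li2 1.30-fold. The median over all genes tested was 2.55-fold. Among ciliated controls alone, the SD of log2 clone means was 0.33 for Dync1h1 and 0.15 for Dync1li1, the widest and the narrowest, against a median of 0.26 over 8173 genes of at least 20 CPM. In non-ciliated controls Pafah1b1 was the narrowest at 0.05, equal to 1.08-fold between the lowest and the highest clone, and Dctn1 the widest at 0.33. For Ndel1 the SD among ciliated controls (0.27) exceeded that among their libraries (0.07), and for Dync1li1 they were close (0.15 and 0.14).

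**Figure D4:**
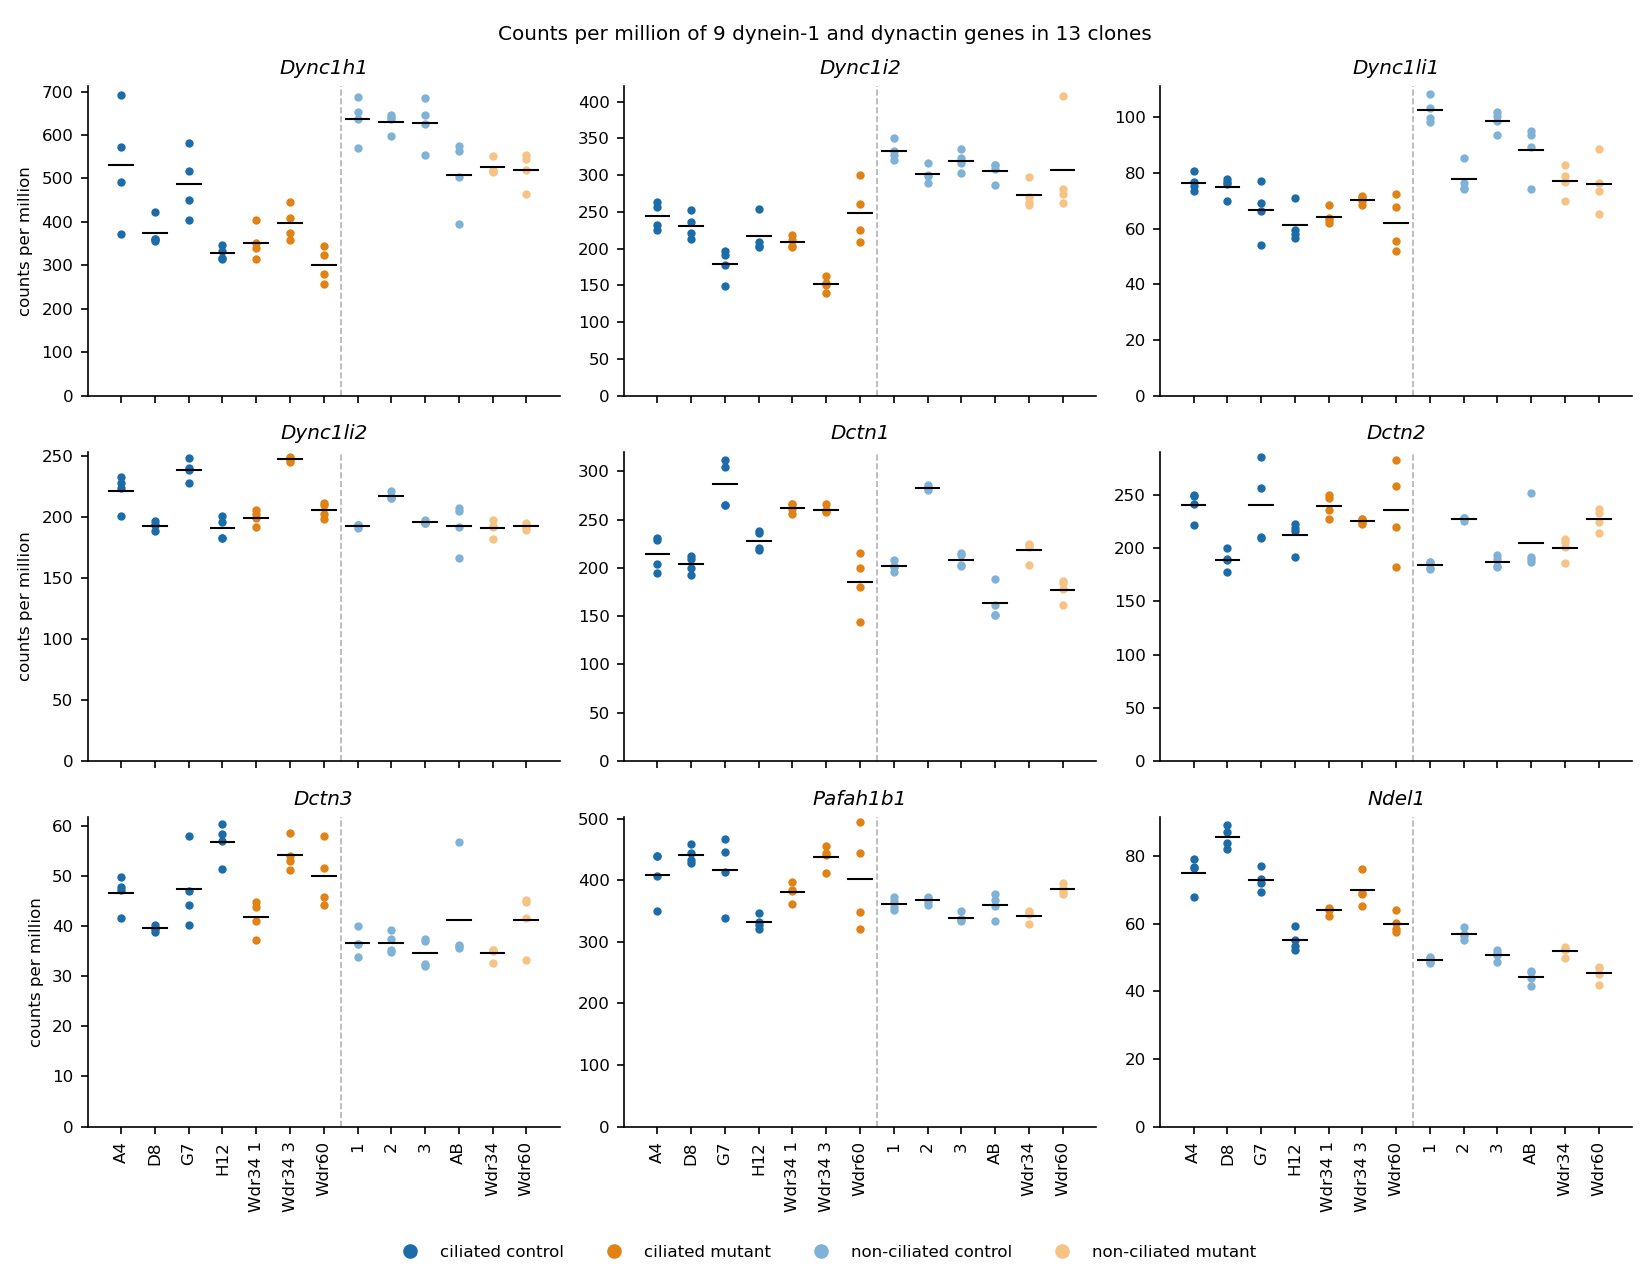
CPM (vertical axes, from 0) of the 9 tested genes in each of 13 clones, ciliated left and non-ciliated right of the dashed line, with a point for each of 4 libraries and a bar for the clone mean. Dync1i2 lies at 179–244 CPM in ciliated and 301–333 CPM in non-ciliated controls, while the control clones of Dctn2 (189–241 and 184–227 CPM), Dync1li2 (191–239 and 193–217 CPM) and Pafah1b1 (332–441 and 339–367 CPM) overlap between the states.

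For 3 genes the chromosome they lie on also varied between clones. For each clone, a gene and the median of its chromosome were taken relative to the mean of the control clones of that state. The Dync1i2 level of ciliated Wdr34 labelled 3 was -0.51 (log2), and the median of chromosome 2 in that clone was -0.35, with its 50 nearest tested genes at -0.32. In all other clones the chromosome 2 median lay between -0.03 and 0.07. Dctn3 on chromosome 4 was at 0.20 in the same clone and at 0.27 in control H12, where the chromosome medians were 0.38 and 0.18. Dctn1 on chromosome 6 was at -0.36 in control AB, -0.24 in non-ciliated Wdr60 and -0.32 in ciliated Wdr60, where the chromosome 6 medians were -0.41, -0.36 and -0.34. In control H12 that median was -0.31 and Dctn1 was at -0.02. The 2 highest Dctn1 values, 0.43 in non-ciliated control 2 and 0.31 in ciliated control G7, stood above chromosome medians of 0.08 and 0.12.

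Over the 13 clones Pearson r between a gene and its chromosome median was 0.74 for Dync1i2, 0.63 for Dctn1 and 0.72 for Dctn3, as a description in which both values come from the same libraries. Without the 2 clones farthest from the median chromosome value, r was 0.37, 0.42 and 0.65. For Dync1i2 it rested on Wdr34 labelled 3, without which r was 0.25 over 12 clones while the gene still ranged from -0.28 to 0.20. The medians of the chromosomes of the other 6 genes moved by at most 0.109 over the clones, and r was 0.07 (Dync1h1) to 0.45 (Dync1li2), or 0.12 to 0.45 without the 2 farthest clones. In the comparison of control states the chromosome medians were near 0 for Dync1i2 (-0.02, against -0.55 for the gene, and -0.12 for its 50 nearest genes), Dync1h1 (-0.05, against -0.51) and Ndel1 (0.01, against 0.51). For Dctn3 the chromosome 4 median was 0.11 and that of its 50 nearest genes 0.25, against 0.36 for the gene. DNA copy number was not measured here.

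**Figure D5:**
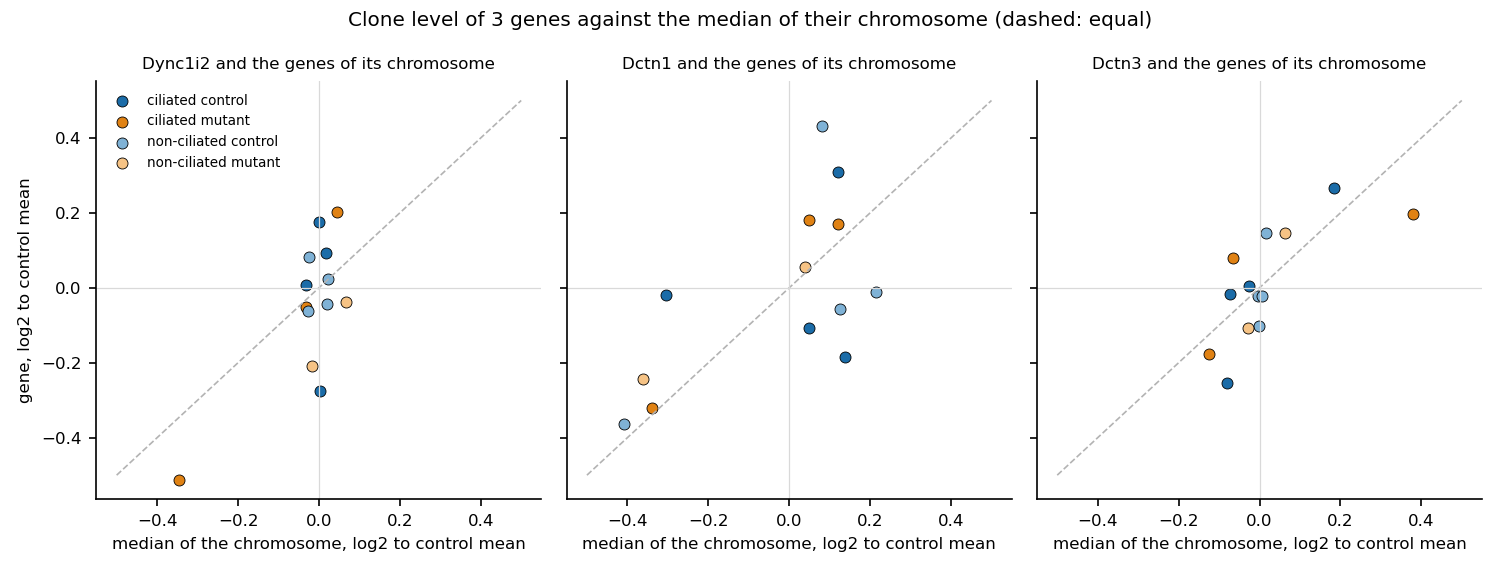
For Dync1i2, Dctn1 and Dctn3 in 13 clones, the median log2 level of the tested genes of the same chromosome (horizontal axis) and the log2 level of the gene (vertical axis), both relative to the mean of the control clones of the same state, with a dashed line of equality. Ciliated Wdr34 labelled 3 lies apart for Dync1i2 at -0.35 and -0.51, and control AB and both Wdr60 clones lie low together for Dctn1.

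The genes most like Dync1i2 over the 13 clones, once values were centred within each state, were Shank2 (Pearson r = 0.93), Ptpn6 (0.92), Sdccag3 (0.92), Traf6 (0.91) and Atxn10 (0.91). At least Traf6 among these lies on chromosome 2, as Dync1i2 does, and the positions of the others are not given here. Among the 9 genes themselves the highest value was 0.62 between Dync1h1 and Ndel1, and the lowest was -0.68 between Dctn3 and Ndel1, each a description over 13 clones.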

How the data were processed

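RNA-seq of 52 libraries from 13 clones was analysed. The authors aligned reads to GRCm38/mm10 in R 3.4.4, and featureCounts gave 1 value per gene symbol, deposited as raw counts that no step had normalized. Their own tests used DESeq2 1.18.1. A strand setting is not given in the sources used here. No annotated antisense neighbour of a listed gene was counted.

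Groups and clones came from the sample labels. The 4 libraries of a clone were summed, filtered with filterByExpr, scaled by TMM and tested with glmQLFit and glmQLFTest (2-sided) of edgeR 4.0.16 in R 4.3.3, with limma 3.58.1 and DESeq2 1.42.0 for alternatives. A call needed an adjusted p (Benjamini-Hochberg, BH, over all genes tested) under 0.05. Because clones are few, p-values measure the spread between clones. Clones of different states were treated as separate samples, since the labels do not say whether a clone of one state has a counterpart in the other. Exact permutation tests compared mean log2 CPM over clones. CPM were TMM-scaled over 52 libraries, and gene lengths and positions came from GENCODE vM21 (a length for 95.7% of 24421 symbols). Log2 clone values for spread, chromosomes and likeness used a pseudocount of 0.1 CPM. Counts of 1 clone cover technical replicates, and depth (14816218 to 28084979 counts per library) limits only genes of a few counts, such as Dync1i1.

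On simulated counts with the clone spread measured here, ciliated mutants against controls (13243 genes) recovered 0% of genes changed by 0.5 (log2), 16% at 1, 88% at 2 and 100% at 4. For ciliated against non-ciliated controls (13119 genes) 0%, 36%, 84% and 98% were recovered, and for non-ciliated mutants (13406 genes) 0%, 22%, 80% and 96%. Each simulation changed only 50 genes of each size, whereas 1764 genes were called between the control states. An adjusted p is harder to reach where few genes change, so these shares need not hold for that comparison. There Dync1i2 was called at -0.55.

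The genes and lists were chosen with earlier results of these data known. Named were the 10 genes, Wdr34, Wdr60, from each of 4 lists (other subunits, adaptors and regulators, dynein-2, proliferation) up to 4 called genes with the largest change per comparison or, where none was called, the 1 with the largest change, and the 5 genes most like the listed gene of widest range. Alternatives were libraries as samples (in edgeR without or with a replicate block, in DESeq2, and in voomLmFit blocked by clone), DESeq2 on clone sums, scaling by RLE, a minimum of 1 count in any clone or of 40 counts in every clone, a log2 limit of 1, an adjusted p under 0.01, all 13 clones in one fit, other length scalings, and leaving out each clone or replicate number. Leaving out 4 libraries apart in transcript length, and leaving out 2 control clones with Cdh1 and Epcam under 20 CPM, were added after the data were seen. Human data were not used here.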

Additional observations from a re-analysis of the deposited data

Results flagged for a closer look

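Of 135 sets of 4 values looked at (4 libraries of a clone, or 4 control clones of a state), 14 had a value far from the other 3, where chance gives about 1 in 20. Among clone means, Dync1h1 of control AB was 509 CPM against 628–637 CPM in the other non-ciliated controls, and Dync1li2 of control 2 was 217 CPM against 193–196 CPM.

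Among libraries, Dync1h1 was 553 CPM in replicate 2 of non-ciliated Wdr34 (others 514–520 CPM) and 423 CPM in replicate 1 of control D8 (others 356–361 CPM). Dync1i2 was 408 CPM in replicate 1 of non-ciliated Wdr60 (others 262–281 CPM), 286 CPM in replicate 2 of control AB (others 309–313 CPM) and 254 CPM in replicate 1 of control H12 (others 202–209 CPM). Dync1li2 was 191 CPM in replicate 1 of non-ciliated control 1 (others 193 CPM) and 197 CPM in replicate 2 of non-ciliated control 3 (others 195 CPM). Dctn1 was 203 CPM in replicate 4 of non-ciliated Wdr34 (others 222–224 CPM). Dctn2 was 252 CPM in replicate 1 of control AB (others 187–192 CPM) and 225 CPM in replicate 2 of non-ciliated control 2 (others 228 CPM). Dctn3 was 32.6 CPM in replicate 1 of non-ciliated Wdr34 (others 35.1–35.3 CPM) and 56.8 CPM in replicate 1 of control AB (others 35.6–36.2 CPM). Replicate 1 of control AB, high for Dctn2 and Dctn3, is the library with the widest gap between short and long genes (1.11, log2), whose part was not tested.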

How the results depend on the processing

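In ciliated against non-ciliated controls, where 1 of 9 genes was called, the count was 6 with libraries as samples, also 6 with the replicate block added, 2 with voomLmFit blocked by clone, 5 by DESeq2 on clone sums and 7 by DESeq2 on libraries. It was 2 without both control clones low in Cdh1 and Epcam (under 20 CPM), 2 at a minimum of 40 counts in every clone, 3 with all 13 clones in one fit, 0 with a log2 limit of 1 or an adjusted p under 0.01, and 0 to 2 when one clone or replicate number was left out (0 without AB, 1, 3, D8 or A4, and 2 without control 2 or replicate 3). RLE scaling, a minimum of 1 count and leaving out the 4 libraries apart in transcript length kept it at 1. In all, these settings called 144 to 7358 genes against 1764, and 288 without control 1. In non-ciliated mutants, where 0 were called, the count was 1 with libraries as samples, 1 with the replicate block and 2 by DESeq2 on libraries. With libraries as samples the fits called 1803, 1393 and 2264 genes, and DESeq2 on clone sums called 53. In ciliated mutants and in the difference between states the count was 0 in every setting run, while up to 692 and 394 genes in all were called by DESeq2 on libraries. Changes of sign were confined to values that were not called. The difference between states of Dctn3 was 0.0088 with libraries as samples, 0.0096 with the replicate block, 0.0027 by DESeq2 on libraries and 0.0017 at a minimum of 40 counts, where Dctn2 was at 0.0006 and Pafah1b1 at 0.027. Pafah1b1 was at 0.0067 at a minimum of 1 count. With voomLmFit it was at 0.0047, and Dctn1 and Dctn3 in ciliated mutants were at -0.0016 and -0.0022. Without the libraries apart in transcript length these were at -0.0299 and -0.0053, and Pafah1b1 in the difference between states at 0.0493. Without both control clones low in Cdh1 and Epcam that difference was -0.0382 for Dync1i2 and 0.0051 for Pafah1b1. The settings without these libraries and without these clones were chosen after the data were seen. Leaving out one clone or replicate number gave, in ciliated mutants, -0.2679 to 0.0705 for Dync1i2, -0.0634 to 0.106 for Dync1li2, -0.0848 to 0.1531 for Dctn1, -0.0004 to 0.1273 for Dctn2, -0.0722 to 0.1054 for Dctn3 and -0.0456 to 0.084 for Pafah1b1. In ciliated against non-ciliated controls it gave -0.0017 to 0.1401 for Dync1li2 and -0.0021 to 0.286 for Dctn1. In non-ciliated mutants it gave -0.2797 to 0.0693 for Dctn1, -0.0781 to 0.1478 for Dctn3, -0.0374 to 0.096 for Pafah1b1 and -0.1664 to 0.0677 for Ndel1. In the difference between states it gave -0.1935 to 0.0343 for Dync1h1, -0.1282 to 0.2035 for Dync1i2, -0.0521 to 0.2791 for Dctn1, -0.1083 to 0.0539 for Dctn2, -0.1449 to 0.0982 for Dctn3 and -0.0756 to 0.0748 for Pafah1b1. The Dync1li1 share in ciliated controls and mutants and in non-ciliated controls and mutants was 34.1%, 32.0%, 41.7% and 38.3% per kb of merged exons, 37.1%, 34.97%, 44.9% and 41.5% per kb of the longest transcript, and 24.96%, 23.2%, 31.5% and 28.5% of counts. The cause of these changes was not tested, beyond the smaller number of clones or genes that a setting holds. Replicate numbers did not pair libraries, since the median correlation of deviations was -0.0166 for the same number and 0.0047 for different numbers, and 7 of 52 libraries correlated best with their own number. A left-out clone that leaves 1 mutant in a group assumes that this clone varies like the controls. Among 891 settings of single genes, 769 kept direction and call, 32 gained a call, 8 lost it and 82 changed sign. Depth limits only Dync1i1.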
